A study of Homo sapiens with 35 samples.

Results

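U-87 MG cells, a human glioblastoma line of mesenchymal character, were compared by RNA-seq after knockdown of *NFKB2* and in control cells, with both groups under TWEAK. The comparison used 6 of the 12 RNA-seq libraries of the series, 3 of *NFKB2* KD cells and 3 of control cells. The labels number them as replicates, and the paper describes its RNA-seq as having 3 biological replicates. How these were kept separate is not stated. The p-values measure the spread between replicate libraries, part of which may be technical. That spread was estimated over all 12 RNA-seq libraries, fitted together as 4 groups of 3. The KD cells carried a lentiviral CRISPR-Cas9 vector with a guide against *NFKB2*, and the comparison cells are labelled as control. The sample titles name neither the guide nor the control construct, so an effect of either cannot be told apart from the knockdown. Transduced cells were selected with antibiotic, and whether they were 1 clone or a mixture was not given in the sources used here. Both groups were starved of serum and then received TWEAK at 10 ng/ml for 48 h. Where a value of the untreated control cells or of TWEAK-treated *ETS1* KD cells is given beside a gene, it comes from the other 6 libraries. All 16879 genes that passed a filter on low counts were tested, of 62696 in the table.

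*NFKB2* encodes p100, a protein that holds RelB in the cytoplasm and is processed to p52, a DNA-binding NF-κB subunit. TWEAK is a cytokine of the TNF family that binds the receptor Fn14, encoded by *TNFRSF12A*. In resting cells a complex of TRAF2, TRAF3 and the cIAP proteins keeps the kinase NIK low. Fn14 draws that complex away, NIK accumulates, and p100 is processed to p52, which enters the nucleus with RelB. This non-canonical pathway runs beside the canonical one, in which IκB proteins release RelA, and *NFKB2* and *RELB* are themselves NF-κB target genes. In glioblastoma, Fn14 signalling is known for its part in invasion and survival.

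The 6 libraries held between 28484556 and 40192606 counts each, and their order of depth did not follow the groups. *NFKB2* KD replicate 2 stood somewhat apart, with correlations of log2 CPM of 0.981 and 0.983 with the other KD libraries, which correlated at 0.990 with each other. Of 10 markers of mesenchymal glioma lines 8 lay above 1 CPM, while *SOX2* and *PDGFRA* were below it, and their summed level was 19280 to 21380 CPM in the controls and 15510 to 18710 CPM in the KD cells. The part of this difference, and of KD replicate 2, in the results was not tested beyond the values given without that library. Of 7 astrocyte markers *SLC1A3*, *GJA1* and *SLC1A2* lay above 1 CPM and *AQP4* was at 0 counts, with a summed level of 178.5 to 193 CPM in the controls and 179.9 to 200.0 CPM in the KD cells. Of 7 neuronal markers *MAP2*, *SYT1*, *TUBB3* and *SNAP25* lay above 1 CPM and *STMN2* and *RBFOX3* were at 0, with sums of 50.6 to 57.9 and 50.03 to 65.2 CPM. The oligodendrocyte list (*MBP* and *OLIG2* above 1 CPM; *MOG*, *MAG*, *OLIG1* and *SOX10* at 0) summed to 2.04 to 3.14 and 2.92 to 3.56 CPM. The macrophage and microglia list (*CSF1R*, *ITGAM* and *CD68* above 1 CPM; *TYROBP* at 0) summed to 16.2 to 18.5 and 15.2 to 17.7 CPM.

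The sequences of p52-bound sites near the genes on which the results turn are shown first. In p52 ChIP-seq of TWEAK-treated U-87 MG cells, 2941 sites were shared by both libraries, and 1720 of the 2911 windows of 50 bp to each side of their summits (59.1%) held the κB motif GGGNNNTTCC on either strand. The same motif was in 2289 of 35116 promoters of 300 bases from RefSeq (6.52%), a window of another length. Each line gives 30 bases of the plus strand of hg38, 5′ to 3′, with the matched motif, overlapping matches merged, in capitals.
NFKB2, chr10:102394462-102394491: aaacgtcatgGGAATTCCCCcctccggggg
NFKB2, chr10:102394490-102394519: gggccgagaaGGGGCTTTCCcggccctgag
TRAF1, chr9:120928505-120928534: atcctctgcGGGGAATTCCCCccgcgtctc
TRAF1, chr9:120926244-120926273: ggatggagcaGGAATTACCCtttgtggcga
RELB, chr19:45001323-45001352: gtgacgcgtgGGGGTTTTCCcgttccccag
CXCL2, chr4:74099253-74099282: tcccgggccaGGGAAATTCCCggagctcca
MMP9, chr20:46008294-46008323: ttgccccagtGGAATTCCCCagccttgcct
IL32, chr16:3065294-3065323: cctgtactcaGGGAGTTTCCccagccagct
Both NFKB2 matches and the second TRAF1 match lie in annotated exons, the first TRAF1 match lies in an intron of a longer transcript, and the IL32 match is exonic. The RELB, CXCL2 and MMP9 matches lie outside the annotated span of the gene named. A match is a description of the letters in the window and does not show that the site acts on the gene.

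The gene targeted by the guide was examined first. *NFKB2* (ENSG00000077150, chr10:102394110-102402524, plus strand, hg38) had 235, 288.5 and 346 CPM in control replicates 1, 2 and 3 and 75.7, 92.6 and 105 CPM in the *NFKB2* KD replicates. CPM, the count relative to the library total after TMM scaling, does not correct for gene length, so levels are compared between groups and not between genes. Every KD library lay below every control library, and all KD libraries stayed above the untreated control cells, which had 49.5, 54.5 and 66.6 CPM. The mean was 290.0 ± 55.4 CPM (SD, n = 3) in the controls and 91.1 ± 14.7 CPM (SD, n = 3) after knockdown. On the log2 scale *NFKB2* fell by 1.67 (SE 0.18), to 0.314 of the control level (edgeR quasi-likelihood test, adjusted p = 0.00339). In bulk RNA a smaller share of cells that express a gene and less RNA per cell cannot be told apart, and the RNA level does not show how much of the remaining transcript encodes intact protein. Without KD replicate 2 the log2 fold change was -1.68 (edgeR adjusted p = 0.0423).

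Across all genes, 4 fell and 1 rose at an adjusted p under 0.05 in the edgeR test, which is 0.0237% and 0.00592% of the genes tested. The genes that fell were *NFKB2*, *NR5A2*, *G0S2* and *TRAF1*, and the gene that rose was *MEGF6*. With DESeq2, 26 genes were lower (0.154%) and 10 higher (0.0592%). At a DESeq2 p of at most 0.05, taken here as unadjusted, and a change of at least 1.5-fold, the sizes of p and fold that the study set, 145 genes were lower (0.859%) and 210 higher (1.24%). At an unadjusted edgeR p under 0.05 there were 315 lower genes (1.87%) and 345 higher genes (2.04%). For 645 genes (3.82%) all 3 KD libraries lay below all 3 controls, and for 514 genes (3.05%) all lay above. The median log2 fold change of all genes tested was -0.02. Without KD replicate 2, *NFKB2* and *MEGF6* were the 2 genes called by edgeR.

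**Figure D1:**
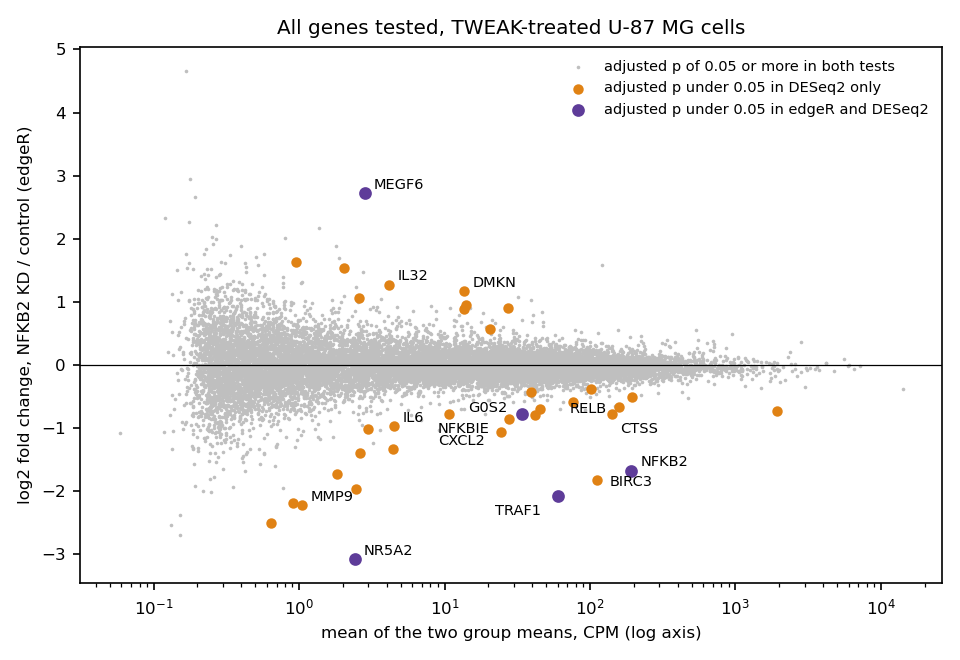
Each point is 1 of the 16879 genes tested. The x axis is the average of the control and *NFKB2* KD mean levels in CPM on a log axis, and the y axis is the edgeR log2 fold change, KD over control. The 5 genes called by edgeR stand away from the bulk at different levels, from *MEGF6* and *NR5A2* below 5 CPM to *NFKB2* near 190 CPM, and the orange points passed in DESeq2 only.

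*TRAF1*, an adaptor that binds TNF receptors and the cIAP proteins and an NF-κB target, was the gene of the TWEAK and NIK list that fell. It lies at chr9:120902393-120929173 on the minus strand. *TRAF1* had 64.2, 83.1 and 143.9 CPM in the controls and 19.8, 19.1 and 29.9 CPM in the KD cells. The groups did not overlap, and the KD libraries lay nearer to the untreated cells, at 10.2, 11.03 and 13.6 CPM, than to the TWEAK-treated controls. The log2 fold change was -2.08 (SE 0.30), to 0.236 of the control level (edgeR, adjusted p = 0.0392). The call was lost when any 1 of 5 libraries was left out (edgeR adjusted p up to 0.261 without KD replicate 1), and held without control replicate 1. In *ETS1* KD cells *TRAF1* had 36.7, 55.7 and 65.3 CPM, and the difference between the knockdowns did not pass (log2 -1.20, edgeR adjusted p = 0.0597).

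*NR5A2*, a nuclear receptor also called LRH-1 that is best known from liver and pancreas, lies at chr1:200027614-200177420 on the plus strand. *NR5A2* had 3.41, 3.09 and 6.496 CPM in the controls, from 95, 124 and 234 raw counts. In the KD cells it had 0.492, 0.354 and 0.699 CPM, from 17, 13 and 23 raw counts. The groups were widely separated, and the KD libraries reached the range of the untreated cells (0.277 to 0.417 CPM) at replicate 2 and lay above it in replicates 1 and 3. The log2 fold change was -3.07 (SE 0.37), to 0.119 of the control level (edgeR, adjusted p = 0.00889). *NR5A2* was also lower than in *ETS1* KD cells, which had 1.94, 3.40 and 3.35 CPM (log2 -2.49, edgeR adjusted p = 0.00471). The call was lost without KD replicate 1 (edgeR adjusted p = 0.108) or KD replicate 2 (0.0940).

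*G0S2* encodes an inhibitor of adipose triglyceride lipase and lies at chr1:209675412-209676390 on the plus strand. It had 45.9, 38.8 and 45.1 CPM in the controls and 24.2, 26.9 and 24.9 CPM in the KD cells. Both groups were tight and apart from each other, and the KD libraries lay between the TWEAK-treated and the untreated cells, the latter at 11.97 to 12.4 CPM. The log2 fold change was -0.77 (SE 0.11), to 0.586 of the control level (edgeR, adjusted p = 0.0392). It was lower than in *ETS1* KD cells, at 43.1, 51.3 and 49.4 CPM (log2 -0.92, edgeR adjusted p = 0.00181). Leaving out any 1 of the 6 libraries ended the call (edgeR adjusted p 0.0940 to 0.320).

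*MEGF6*, a secreted protein with EGF-like repeats, lies at chr1:3487951-3611508 on the minus strand. *MEGF6* had 0.610, 0.697 and 0.916 CPM in the controls, from 17, 28 and 33 raw counts. In the KD cells it had 6.08, 4.54 and 4.20 CPM, from 210, 167 and 138 raw counts. Every KD library was far above every control, and the untreated cells were lowest, at 0.0695 to 0.156 CPM. The log2 fold change was 2.72 (SE 0.28), a 6.599-fold rise (edgeR, adjusted p = 0.00339). *ETS1* KD cells also held more than the controls, with 1.88, 3.25 and 3.43 CPM, and the difference between the knockdowns did not pass (log2 0.79, edgeR adjusted p = 0.136).

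**Figure D2:**
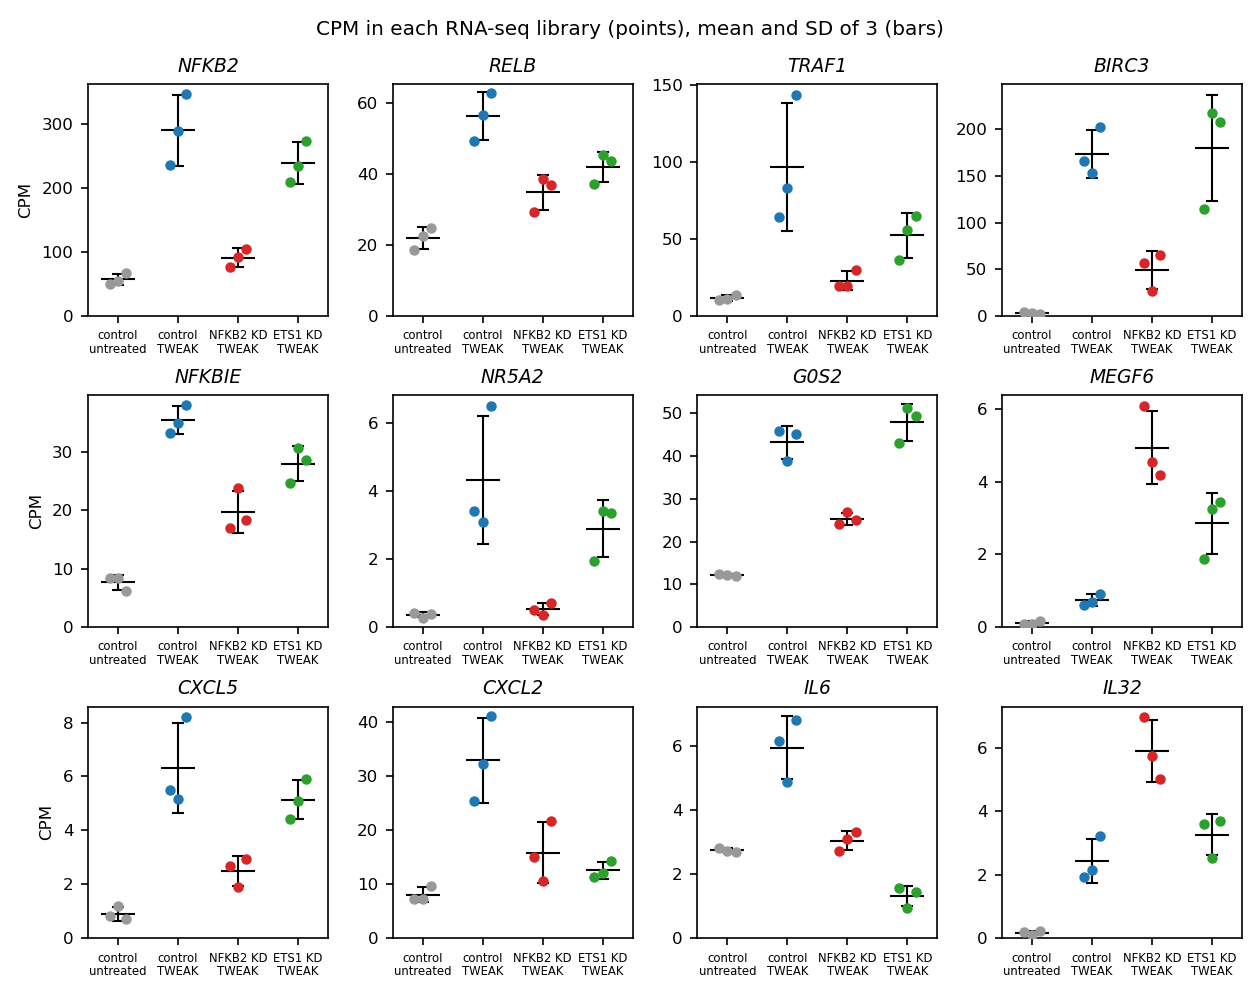
Level in CPM on a linear axis for 12 genes, with 1 point per library in the untreated control, TWEAK-treated control, *NFKB2* KD and *ETS1* KD groups and with a wide bar at the mean and whiskers of 1 SD. For *NFKB2*, *NR5A2*, *TRAF1* and *G0S2* the *NFKB2* KD points lie below the TWEAK-treated controls without overlap, and for *MEGF6* they lie above.

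The other NF-κB subunits were examined next, since p52 pairs with them. All 5 subunits, the targeted *NFKB2* among them, had a negative fold change, with a median of -0.36 on the log2 scale against -0.02 over all genes. Of the 5, 1 was called (*NFKB2* itself, the target). The KD libraries lay entirely below the controls in 2 (40%), *NFKB2* and *RELB*, against 3.82% of all genes. *NFKB2* is the edited gene, so its fall adds to these counts without bearing on the other subunits, of which *RELB* alone did not overlap. Without KD replicate 2 the median of the 5 was -0.14. *RELB*, the usual partner of p52, had 49.3, 56.7 and 62.9 CPM in the controls and 29.3, 38.6 and 36.9 CPM in the KD cells. The *RELB* groups did not overlap, and the untreated cells had 18.6, 22.4 and 24.9 CPM. Its log2 fold change was -0.69 (SE 0.15), which did not pass in edgeR (adjusted p = 0.319) and passed in DESeq2 (adjusted p = 0.0231). The log2 fold change was -0.17 for *NFKB1*, which encodes p105 and p50, -0.17 for *RELA* and -0.36 for *REL*, and their groups overlapped. *RELB* did not pass in the comparison with *ETS1* KD cells (log2 -0.27, edgeR adjusted p = 0.417).

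Of the 14 tested genes of the TWEAK receptor and NIK pathway, 1 fell (*TRAF1*), none rose, and the median was -0.08. In 4 (28.6%, against 3.82% of all genes) the KD libraries lay below the controls, namely *TRAF1*, *BIRC3*, *BIRC2* and *TRAF2*. *BIRC3*, which encodes cIAP2, had 166, 153 and 202 CPM in the controls and 57.0, 26.3 and 65.1 CPM in the KD cells. The groups were clearly apart, while the untreated cells had only 1.97 to 4.52 CPM. The log2 fold change of *BIRC3* was -1.81 (SE 0.34), with an adjusted p of 0.194 in edgeR and 0.000225 in DESeq2. It was lower than in *ETS1* KD cells, which had 115, 217 and 208 CPM (log2 -1.86, edgeR adjusted p = 0.0154). *BIRC2*, its neighbour on chromosome 11 and the gene of cIAP1, had 76.5, 71.3 and 82.0 CPM in the controls and 60.2, 26.4 and 55.2 CPM in the KD cells, where replicate 2 was again lowest (log2 -0.70, SE 0.25). *TRAF2* had a log2 fold change of -0.28 (SE 0.09) and differed from *ETS1* KD cells (edgeR adjusted p = 0.0242). The receptor gene *TNFRSF12A* had 140, 145 and 138 CPM in the controls and 137, 151 and 133 CPM after knockdown, and *MAP3K14*, which encodes NIK, also overlapped. These last 2 genes are named after their values were seen. The difference for *TNFRSF12A* was -0.00 (SE 0.10) on the log2 scale and that for *MAP3K14* -0.02 (SE 0.30), and both turned sign under some other settings.

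Inhibitors and feedback regulators of NF-κB form the next group. Of 14 tested, none passed in edgeR, 5 (35.7%) had KD libraries below the controls against 3.82% of all genes, and the median was -0.29. A negative fold change was seen in 10 of the 14. The list medians in KD replicates 1, 2 and 3 were -0.27, -0.25 and -0.12. Lists outside NF-κB leaned in sign too, with 71 of 76 ribosomal protein genes negative and 9 of 35 genes of glycolysis and hypoxia. Their medians differed in sign between KD libraries, at 0.06, 0.06 and -0.24 for ribosomal protein genes and -0.04, 0.21 and -0.01 for glycolysis and hypoxia. *NFKBIE*, which encodes IκBε, had 33.3, 35.0 and 38.1 CPM in the controls and 17.0, 23.9 and 18.3 CPM in the KD cells. The groups did not overlap, and the untreated cells had 6.16 to 8.44 CPM. Its log2 fold change was -0.85 (SE 0.16), with an adjusted p of 0.194 in edgeR and 0.0023 in DESeq2. *NFKBIA* (IκBα), *NFKBIB* (IκBβ) and *TNIP2*, a partner of A20, had log2 fold changes of -0.49, -0.37 and -0.35 and groups that did not overlap. *TNFAIP3*, which encodes A20 and is named here after its value was seen, had 10.3, 13.0 and 18.7 CPM in the controls and 12.1, 15.3 and 17.1 CPM in the KD cells. Its log2 difference was 0.08 (SE 0.22), and the groups overlapped.

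**Figure D3:**
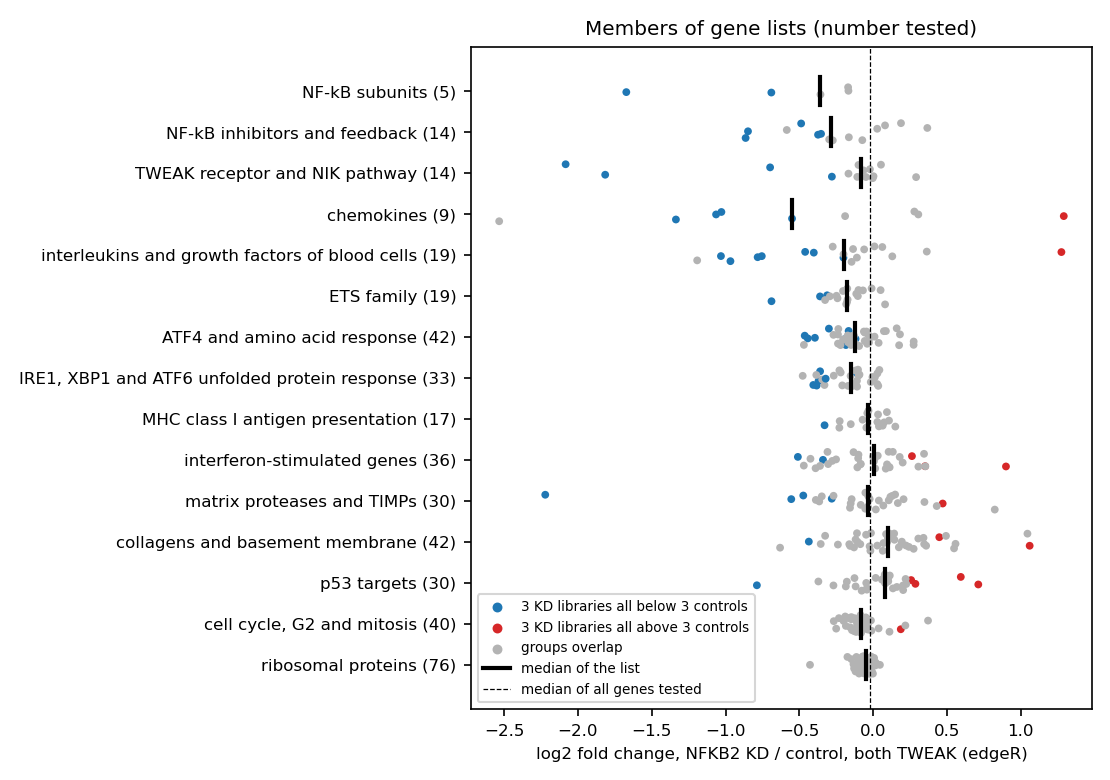
Each row is a gene list with the number tested in brackets, each point is 1 gene, and the x axis is the edgeR log2 fold change, KD over control. Blue points have all 3 KD libraries below all 3 controls, red points the reverse, the black bar is the median of the list, and the dashed line is the median of all genes at -0.02. The subunits (with the targeted *NFKB2* counted), inhibitors, chemokines and interleukins have the medians farthest below that line.

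Chemokines, many of them NF-κB targets that attract neutrophils or monocytes, were tested in 9 of 19 members. None passed in edgeR, 4 (44.4%) had KD libraries below the controls and 1 (11.1%) above (3.82% and 3.05% of all genes), and the median was -0.55. *CXCL5* had 5.49, 5.18 and 8.22 CPM in the controls and 2.66, 1.88 and 2.95 CPM in the KD cells, against 0.688 to 1.20 CPM in untreated cells. The groups were apart, with a log2 fold change of -1.34 (SE 0.25) and an adjusted p of 0.194 in edgeR and 0.000504 in DESeq2. *CXCL2* had 25.4, 32.3 and 41.2 CPM in the controls and 15.03, 10.6 and 21.8 CPM in the KD cells. The *CXCL2* groups were apart too (log2 -1.06, SE 0.24, DESeq2 adjusted p = 0.0195), and *CXCL3* had a log2 fold change of -1.03 (SE 0.30). *CXCL8*, named after its values were seen, had 16.3, 14.4 and 25.2 CPM in the controls and 12.1, 13.96 and 12.1 CPM in the KD cells (log2 -0.55). *CXCL2* and *CXCL3* are close copies of one another, so reads could be shared between them in the counting. The member above its controls, *CCL26*, was below 1 CPM in all 6 libraries.

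Interleukins and growth factors of blood cells were tested in 19 members. None passed in edgeR, 7 (36.8%) had KD libraries below the controls and 1 (5.26%) above (3.82% and 3.05% of all genes), and the median was -0.20. *IL6* had 6.17, 4.88 and 6.83 CPM in the controls and 2.72, 3.10 and 3.31 CPM in the KD cells, near the untreated cells at 2.69 to 2.81 CPM. The groups did not overlap, and the log2 fold change was -0.97 (SE 0.19), with a DESeq2 adjusted p of 0.00322. *ETS1* KD cells had still less *IL6*, at 0.95 to 1.55 CPM, and the knockdowns differed (log2 1.21, edgeR adjusted p = 0.0104). *IL1A*, *IL1B* and *IL23A* had log2 fold changes of -0.75, -0.78 and -1.03, and *IL23A* was near or below 1 CPM in all 6 libraries. *IL1B*, named after its values were seen, was lower than in *ETS1* KD cells (log2 -1.09, edgeR adjusted p = 0.0289). *IL32*, an inflammatory cytokine of leukocytes and epithelia, stood on the other side. It had 1.94, 2.14 and 3.22 CPM in the controls and 6.98, 5.74 and 5.01 CPM in the KD cells, with untreated cells at 0.0922 to 0.219 CPM. The KD libraries were all higher, with a log2 fold change of 1.27 (SE 0.24) and an adjusted p of 0.194 in edgeR and 0.000856 in DESeq2.

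Proteases, matrix and mesenchymal genes, which bear on the invasive state, followed no single direction. *MMP9*, a gelatinase, had 0.646, 1.27 and 3.28 CPM in the controls, from 18, 51 and 118 raw counts, and 0.463, 0.463 and 0.182 CPM in the KD cells, from 16, 17 and 6 raw counts. The untreated cells had no count, and the control libraries spread over a wider range than the gap between the groups. Its log2 fold change was -2.22 (SE 0.56), with a DESeq2 adjusted p of 0.0309 and no edgeR call. Among 30 matrix proteases and their inhibitors 4 (13.3%) lay below and 1 (3.33%) above the controls (3.82% and 3.05% of all genes), with a median of -0.03, and *MMP1* had a log2 fold change of -0.55 (SE 0.17). The 42 collagen and basement membrane genes had a median of 0.10, with 1 (2.38%) below the controls and 2 (4.76%) above (3.82% and 3.05% of all genes). The median differed in sign between KD libraries, at -0.19, 0.36 and 0.22 for replicates 1, 2 and 3. *COL15A1* had 1.79, 1.89 and 1.33 CPM in the controls and 3.42, 4.24 and 2.80 CPM in the KD cells, separate ranges with a log2 fold change of 1.06 (SE 0.21, DESeq2 adjusted p = 0.00614). The other was the laminin gene *LAMA4* (log2 0.45, SE 0.12).

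Mesenchymal state genes had a median of -0.05 over 25 members, with 1 (4%) below the controls and 2 (8%) above (3.82% and 3.05% of all genes). *VIM*, the gene of vimentin, had a mean of 16010 ± 551 CPM (SD, n = 3) in the controls and 12330 ± 1167 CPM (SD, n = 3) in the KD cells, with no overlap and no edgeR call (log2 -0.38, SE 0.10). *SNAI2*, a transcription factor of mesenchymal cells, had a log2 difference of 0.41 (SE 0.12). *CHI3L1*, a mesenchymal glioma marker, had 56.3, 70.0 and 55.6 CPM in the controls and 86.0, 385 and 72.7 CPM in the KD cells. KD replicate 2 was far above every other library of these 2 groups, while the untreated cells had 263 to 305 CPM. The log2 difference of 1.58 (SE 0.47) did not pass in either test, and without KD replicate 2 it was 0.39. *VIM* supplied most of the summed glioma marker level given above.

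*ETS1* encodes the transcription factor that the study knocked down in its other arm. It had 71.9, 73.1 and 87.6 CPM in the controls and 67.0, 48.8 and 65.4 CPM in the *NFKB2* KD cells. The groups did not overlap, but the gap was small, and KD replicate 2 was lowest (log2 -0.36, SE 0.15, edgeR adjusted p = 0.9996). Every KD library stayed above the untreated cells, which had 42.1, 41.3 and 45.1 CPM. In *ETS1* KD cells it had 28.2, 33.0 and 37.8 CPM, and the knockdowns differed (log2 0.87, edgeR adjusted p = 0.0102). Over 19 tested genes of the ETS family, which besides *ETS1* includes *ETS2* (log2 -0.31), 17 had a negative fold change. In 3 (15.8%, against 3.82% of all genes) the KD libraries lay below the controls, and the median was -0.18, or -0.08 without KD replicate 2. Lists outside this family also leaned in sign, with 71 of 76 ribosomal protein genes negative and 9 of 35 genes of glycolysis and hypoxia. The ETS medians in KD replicates 1, 2 and 3 were -0.17, -0.36 and -0.03. Those of ribosomal protein genes were 0.06, 0.06 and -0.24, and those of glycolysis and hypoxia -0.04, 0.21 and -0.01. *ERN1*, which encodes the stress sensor IRE1α, had 12.8, 16.9 and 24.96 CPM in the controls and 11.4, 11.9 and 16.02 CPM in the KD cells, with overlap (log2 -0.48, SE 0.24).

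Genes of the unfolded protein response and of amino acid stress were set beside the *ETS1* knockdown, because IRE1α is among the molecules the study followed. Against 3.82% of all genes, in the IRE1, XBP1 and ATF6 list 7 of 33 (21.2%) lay below the controls, none above, and the median was -0.15. In the ATF4 list these were 8 of 42 (19%), none, and -0.13, and no gene of either list passed in edgeR. *HSPA5*, the chaperone BiP, had 3455, 3183 and 3425 CPM in the controls and 2387, 2780 and 2746 CPM in the *NFKB2* KD cells. The groups did not overlap (log2 -0.35, SE 0.10), and in *ETS1* KD cells its mean was 1432 ± 59.9 CPM (SD, n = 3). The level was higher after *NFKB2* than after *ETS1* knockdown for *HSPA5* (log2 0.88, edgeR adjusted p = 0.00106), for *HERPUD1*, a factor of endoplasmic reticulum-associated degradation (log2 0.87, edgeR adjusted p = 0.00234), and for *DDIT3*, which encodes CHOP (log2 1.36, edgeR adjusted p = 0.00234). Against the controls *HERPUD1* and *DDIT3* had log2 fold changes of -0.37 and -0.46 in *NFKB2* KD cells, without an edgeR call.

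Over all genes, the test between the knockdowns found 90 genes lower (0.533%) and 237 higher (1.4%) in *NFKB2* KD than in *ETS1* KD cells. Both knockdowns were set against the same control libraries, so their fold changes are not independent. Of the 5 genes called against the controls, *NFKB2*, *NR5A2* and *G0S2* also differed between the knockdowns, with *NFKB2* at 209, 235 and 273 CPM in *ETS1* KD cells (log2 -1.39, edgeR adjusted p = 0.00233). *TRAF1* and *MEGF6* did not pass in that test, which does not show that they responded alike.

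A further 3 genes are named after their values were seen, because they lie next to the edgeR threshold or differ between the knockdowns. *CTSS*, which encodes the protease cathepsin S, had 167, 166 and 204 CPM in the controls and 121, 88.0 and 104 CPM in the KD cells, with no overlap. Its log2 fold change was -0.78 (SE 0.14, adjusted p = 0.194 in edgeR and 0.0014 in DESeq2), and it was lower than in *ETS1* KD cells (log2 -1.04, edgeR adjusted p = 0.00335). *DMKN*, the gene of dermokine, had 8.97, 8.31 and 8.02 CPM in the controls and 17.8, 25.4 and 13.6 CPM in the KD cells. These ranges were apart (log2 1.17, SE 0.19, adjusted p = 0.0947 in edgeR and 2.51e-05 in DESeq2), and the untreated cells had 25.1 to 27.9 CPM. *SNN*, which encodes stannin, had 15.96, 17.3 and 16.3 CPM in the controls and 24.3, 25.2 and 24.5 CPM in the KD cells, tight ranges that did not meet (log2 0.58, SE 0.11, DESeq2 adjusted p = 0.000504). *SNN* was higher than in *ETS1* KD cells (log2 0.69, edgeR adjusted p = 0.00714).

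Whether the genes that moved carried p52 was read from the p52 peak lists of TWEAK-treated cells. A promoter was taken as 1000 bp before to 100 bp after the start of any transcript of the gene, and a p52 site was counted by its midpoint. A p52 site found in both libraries lay at the promoter of 1 of the 4 genes that fell (25%, exact 95% interval 0.631 to 80.6), *NFKB2* itself at another transcript's start, and of 577 of 16873 genes tested with an annotation (3.42%). With 2000 bp before to 500 bp after the start the share of the 4 was 50%. At the study's thresholds the share was 9 of 145 among lower genes (6.21%, exact interval 2.88 to 11.5) and 8 of 210 among higher genes (3.81%, 1.66 to 7.37), and both intervals hold 3.42%. Seen from the p52 side, 27 of the 577 genes with a site (4.68%) had KD libraries below the controls and 16 (2.77%) above, against 3.82% and 3.05% of all genes. Their median log2 fold change was -0.03, against -0.02 over all genes. These intervals cover counting error only.

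Single sites lay close to several of the genes described. Near *NFKB2*, a p52 summit lay 1205 bp upstream of the start of the principal transcript, with an authors' fold enrichment of 46.0 and 93.9 in the p52 libraries 1 and 2, and it ranked 14 of 3579 and 4 of 11761 peaks. *TRAF1* had a site 1725 bp upstream (27.4 and 60.9) and another 531 bp downstream (8.21 and 14.8). *RELB* had a summit 125 bp upstream (26.3 and 50.5) and *CXCL2* 55 bp upstream (20.4 and 40.1). *IL32*, whose KD libraries were higher, had a site 329 bp upstream (8.46 and 18.9), and *MMP9* had one 600 bp upstream (7.23 and 20.6). Sites of both libraries also lay at genes with smaller changes in RNA. *REL*, whose groups overlapped, had a summit 41 bp upstream (32.5 and 72.9). *NFKBIB* (log2 -0.37) had one 21 bp upstream (35.5 and 68.2). *TNFAIP3* (log2 0.08) had summits 213 bp upstream in library 1 and 58 bp upstream in library 2 (5.32 and 11.3). *BIRC3*, *NFKBIE* and *CXCL5* had a summit close to the start, 149, 128 and 59 bp upstream, in library 2 only, whose list is the longer one. The midpoint of the *NFKBIE* peak lay outside the promoter window, so that gene was not counted among promoters with a site. No p52 peak of either TWEAK-treated library lay within 30 kb of the principal start of *NR5A2* or *MEGF6*, and *G0S2* had one in library 2 only, 24211 bp upstream. Inside the *MEGF6* gene, library 2 had a peak (chr1:3496191-3496407, fold enrichment 6.18) with its summit 272 bp upstream of the start of another transcript, 115494 bp from the principal start.

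RNA polymerase II (Pol II) peaks were read at the same promoters in 2 control and 2 *NFKB2* KD libraries, all TWEAK-treated. The Pol II lists were of unequal length, with 44672 and 27056 peaks in the controls, 30310 in KD library 1 and 11175 in KD library 2, so the absence of a peak in KD library 2 and the shortness of its list cannot be told apart. A Pol II promoter peak was present in both control lists for 3 of the 4 genes that fell, *NFKB2*, *TRAF1* and *G0S2*, and for 9678 of 16873 genes tested (57.4%). It was kept in KD library 1 for 2 of the 3 and in KD library 2 for 0 of the 3 (exact 95% upper limit 70.8%), against 94.0% and 73.05% of the 9678. With a peak in either library of each group asked for, the share kept was 66.7%. *TRAF1* was the gene not kept in KD library 1 by this window, although that list holds a peak farther downstream. For *NFKB2* the authors' fold enrichment of the Pol II peak within 2000 bp of the start was 38.0 and 10.8 in the controls and 9.89 in KD library 1. For *TRAF1* these were 22.9, 18.02 and 9.24, and for *G0S2* 9.15, 10.2 and 7.12. At *NFKB2* the KD library lay close to the lower control, and the gap between the control libraries was wider than the gap to it. *RELB* kept a peak in every list, at 25.1 and 14.6 in the controls and 7.74 and 7.34 in the KD libraries, and *CXCL2* at 159 and 61.8 against 45.7 and 13.4. The KD values of both genes were below both controls, and so they were at 3138 of the 6680 genes with a peak in all 4 lists (47.0%), against 175 with both above (2.62%). Genes whose RNA did not fall showed it too, as *TNFRSF12A* did with 49.9 and 35.9 in the controls and 25.4 and 13.0 in the KD libraries, so lower enrichment was not particular to the genes that fell. *NR5A2* and *MEGF6* had no Pol II peak within that distance in any of the 4 lists.

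**Figure D4:**
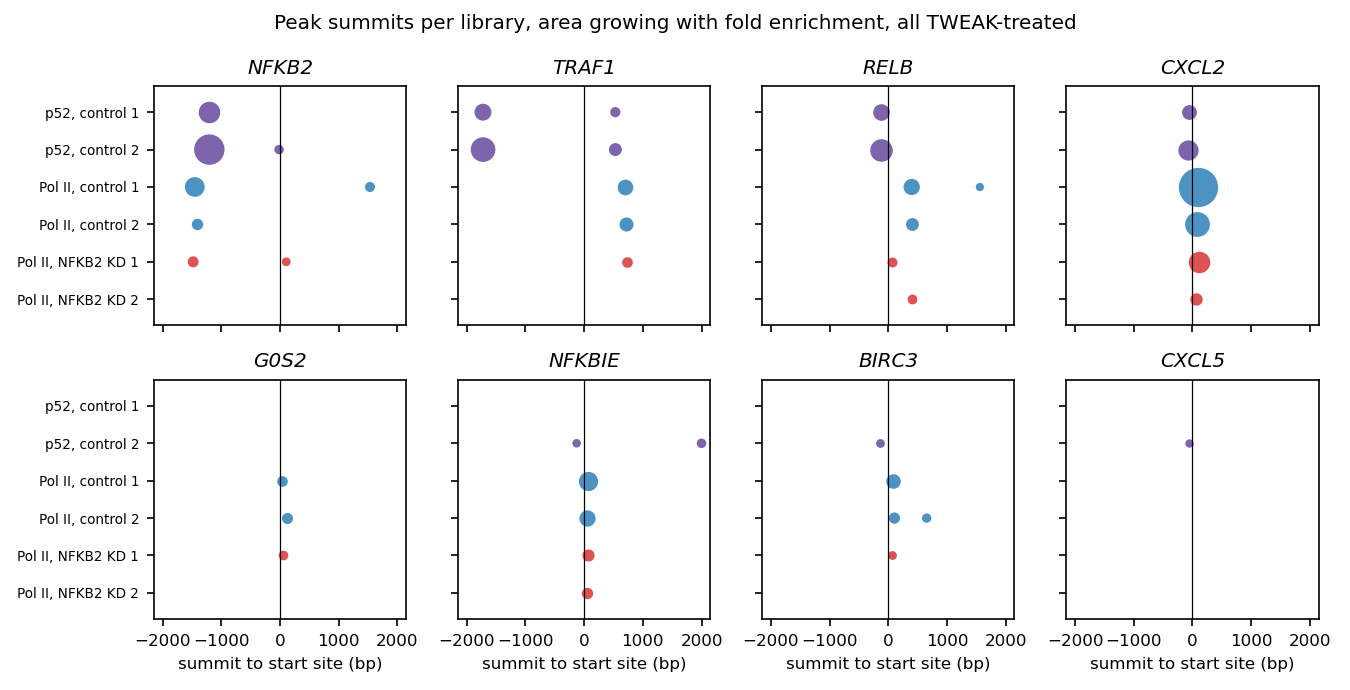
Each panel is a gene, the x axis is the distance of a peak summit from the transcript start in bp, and each row is 1 library of p52 or Pol II, all TWEAK-treated. The area of a point grows with the authors' fold enrichment, with the largest p52 point upstream of *NFKB2* at 93.9, and Pol II points of KD library 2 are missing at *NFKB2*, *TRAF1*, *G0S2* and *BIRC3*, while *CXCL5* has no Pol II point in any list.

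Interferon and antigen presentation genes were examined because both are tied to NF-κB in immune cells. The 36 interferon-stimulated genes had a median of 0.01, with 2 (5.56%) below the controls and 3 (8.33%) above (3.82% and 3.05% of all genes). *IRF1*, an activator of interferon genes and an NF-κB target, had 39.3, 46.7 and 55.4 CPM in the controls and 30.1, 36.1 and 33.1 CPM in the KD cells, without overlap (log2 -0.51, SE 0.13). Of 17 genes of MHC class I presentation 1 (5.88%, near the 3.82% of all genes) lay below, *ERAP1* (log2 -0.33), none above, and the median was -0.03. None of these genes passed in edgeR.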

How the data were processed

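The RNA-seq was of poly(A) RNA, and the authors trimmed reads with Trimmomatic, aligned them to hg38 with STAR and deposited raw counts per gene from featureCounts, with the strand setting not given in the sources used here. Genes that overlap on opposite strands may therefore share reads. For ChIP-seq, the authors aligned with Bowtie2 and called peaks with MACS2, 1 list per library with input subtraction, and the deposited lists hold fold enrichment as a ratio and -log10 of p and q values. Of 62649 distinct gene IDs, 62625 were in GENCODE release 44.

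The counts of all 12 RNA-seq libraries were filtered with filterByExpr, scaled by TMM and fitted with edgeR 4.0.16 (quasi-likelihood F test, 4 groups of 3, R 4.3.3), with Benjamini-Hochberg adjustment over 16879 genes and a threshold of 0.05. SE was the absolute log2 fold change over the square root of F. DESeq2 1.42.0 was an alternative. The scripts were tested on simulated data. Replicate libraries differed by more than sampling noise (chi-square per degree of freedom 6.85 to 88.4), so none was a duplicate. Named genes were *NFKB2*, the NF-κB subunits, *ETS1* and *ERN1*, up to 15 protein-coding genes each way by fold change with adjusted p under 0.05, a mean of at least 1 CPM in the higher group and no overlap of the groups, up to 4 members per gene list by adjusted p, and genes that fell with a p52 site at the promoter. The members and lists were chosen with earlier results of these data known. Other settings were DESeq2, RLE scaling, no filter, only the 2 groups, a replicate block, a GC and length correction, and each library left out. Peaks overlapped from 1 bp, summits were measured to the start of the principal transcript with Python 3.11.15, and RefSeq promoters served the motif share. Total counts of 28484556 to 40192606 in the 6 libraries set the counting precision. Guide sequences were not used here.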

Additional observations from a re-analysis of the deposited data

How the results depend on the processing

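*NFKB2* stayed lower and called under every setting, with log2 fold changes of -1.80 to -1.50, and *MEGF6* stayed called too. The number of genes called, 5, became 36 with DESeq2, 87 without the filter on low counts, 2 with only the 2 groups fitted, 8 with a GC and length correction (which added *BIRC3*, *DMKN* and *SNN*), 355 at the study's thresholds and 2 to 4 with 1 library left out. It was 4 with RLE scaling, which lost *G0S2*. With only the 2 groups, *NR5A2*, *TRAF1* and *G0S2* were lost. Without KD replicate 1 or 2 the same 2 genes, *NFKB2* and *MEGF6*, remained.

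The 327 genes that differed between the knockdowns became 817 with DESeq2, 781 without the filter, 104 with only the 2 groups, 1024 with the GC and length correction and 76 to 561 with 1 library left out, the lowest without *ETS1* KD replicate 3 (leaving out *ETS1* KD libraries was chosen after seeing the data). Genes near 0 changed sign. *TNFRSF12A* was 0.01053 with DESeq2, 0.01051 with RLE scaling, 0.03453 without the filter, 0.0015 with only the 2 groups and -0.05835 to 0.05779 with 1 library left out. *MAP3K14* was 0.01292 without the filter and -0.34 to 0.16 with 1 library left out, and *TNFAIP3* was -0.10 to 0.37. With a promoter of 2000 bp before to 500 bp after the start, the share of the genes that fell with a p52 site went from 25% to 50%, and with a peak in either replicate the share that kept Pol II went from 0% to 66.7%. The causes of these shifts were not tested. Of 315 list medians over the settings 19 moved by more than 1 SD and 55 changed sign.

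Whether the shared replicate numbers mark a batch was not tested, and the main fit left them out. The deviations of same-numbered KD and control libraries from their group means correlated at 0.407, 0.0945 and 0.240 for replicates 1, 2 and 3. Replicates 1 and 3 correlated best with their own number, while control replicate 2 correlated better with KD replicate 3 (0.12). With a replicate block 4 genes were called, without *G0S2*, and 361 differed between the knockdowns. That block gave 755 genes at an unadjusted edgeR p under 0.05, against 660 in the main fit, and an edgeR adjusted p of 1.37e-05 for *NFKB2*. Depth limits the genes below 1 CPM, such as *CCL26* and *MMP9* in KD cells, which rest on few counts.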

Other observations

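Outside NF-κB, targets of p53 had a median log2 fold change of 0.08 over 30 genes tested. No gene of the list passed in edgeR, and 1 had KD libraries entirely below the controls (3.33%) and 4 entirely above (13.3%), against 3.82% and 3.05% of all genes. *PLK2*, a stress-responsive kinase, had 56.8, 47.5 and 54.0 CPM in the controls and 33.8, 23.1 and 34.7 CPM in the KD cells, with no overlap (log2 -0.79, DESeq2 adjusted p = 0.0191). *BTG2*, an antiproliferative factor, had 3.27, 2.76 and 4.50 CPM in the controls and 5.39, 5.604 and 6.26 CPM in the KD cells (log2 0.71), and *CDKN1A*, which encodes p21, had a log2 difference of 0.26, both without overlap. The 40 genes of G2 and mitosis had a median of -0.08, with 35 negative and 1 gene (2.5%, against 3.05% of all genes) above the controls. Their medians in KD replicates 1, 2 and 3 were 0.17, -0.35 and -0.16. The 44 of G1/S and DNA replication had a median of -0.08, with 36 negative and 3 (6.82%, against 3.82% of all genes) below the controls. *BCL2A1*, a survival gene and NF-κB target, was below 1 CPM in all 6 libraries, with a log2 difference of 1.71.

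Ribosomal protein genes had a median of -0.05 over 76 members and no member without overlap, and mitochondrially encoded mRNAs had a median of -0.05. The lists of JAK-STAT, VEGF, MAPK feedback, AP-1, integrin, YAP and TEAD, TGF-β, BCL2 family, cholesterol and glycolysis genes had medians between -0.05 and 0.07 and no edgeR call. In the MAPK feedback list, 3 of 22 genes (13.6%, against 3.82% of all genes) had KD libraries below the controls. *DUSP10* (log2 -0.39) and *HBEGF* (log2 -0.40) were among them. Within 500 kb of *NFKB2*, 19 other genes were tested. None was called, 1 lay entirely below the controls (*TRIM8*, log2 -0.37, named after its value was seen), and the median was -0.01.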
